A study of Mus musculus with 24 samples.

Results

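Diseased quadriceps of 2 mouse strains was compared gene by gene: 3 libraries of D2 CMD (libraries 22, 23 and 24) against 3 libraries of 67 CMD (libraries 10, 11 and 12), chosen by the strain and genotype in their labels, 6 of the 24 libraries of the series. CMD mice carry a Lama2 mutation, labelled as the disease state Lama2-CMD, whose allele is not given in the labels. D2 is DBA/2J, and 67 is the strain labelled CMD-67, called BXD-67 in the study's design. All 6 mice were 25 weeks old and labelled female, and each library came from the left quadriceps, snap frozen. Healthy WT muscle of the same strains and age (D2 WT, libraries 19 to 21, and 67 WT, libraries 7 to 9; 2 labelled male in D2 and 1 in 67) shows which differences were there without the mutation. Quadriceps of the strain labelled B6, also 25 weeks old, is used for the nearness of group means only. Its WT libraries are 1 to 3, with library 1 labelled male, and its CMD libraries 4 to 6, with 4 and 6 labelled male. The labels give each library as its own sample. The p-values measure the spread between these samples.

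Laminin-211, whose alpha chain Lama2 encodes, is the main laminin of the muscle basement membrane and ties the fibre surface to the matrix through dystroglycan and integrin receptors. Its loss causes a congenital muscular dystrophy with fibre death, inflammation, fibrosis and, in peripheral nerve, faulty myelination. DBA/2J is known as a background on which several muscular dystrophies run a more severe course. BXD strains are inbred mosaics of the C57BL/6J (B6) and DBA/2J genomes, so at any gene BXD-67 carries the B6 or the D2 allele.

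The 6 libraries held 35991630 to 51568531 exon reads. Pearson r across genes was 0.984 to 0.987 within 67 CMD, 0.969 to 0.974 within D2 CMD and 0.955 to 0.964 between the groups. Genes are not independent replicates, so these values describe the libraries only. Of the 10 genes that define skeletal muscle, such as Acta1 and Ckm, all were detected in all 6 libraries and 0 differed past the threshold, with 2 called higher without library 23. Their summed level was 94112 to 102342 CPM (reads scaled to a common library size) in 67 CMD and 85574 to 150638 CPM in D2 CMD. Library 23 and library 16 of another strain were known from earlier results to stand apart, and results were also read without them. In whole tissue, fewer cells of a type and less RNA per cell cannot be told apart.

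The sex labels of D2 CMD do not hold in the reads. Over the Y-linked genes Ddx3y, Eif2s3y, Kdm5d and Uty, library 22 held 4927 reads and library 24 held 4858, against 0 in library 23 and 4, 2 and 2 in the 67 CMD libraries. In D2 WT the libraries labelled male, 19 and 21, held 1 and 0, and library 20, labelled female, held 0. The reads thus show in each D2 group the number of males that the labels give for the other group. Whether the sex labels or the genotype labels of D2 are at fault cannot be told apart from these reads, and an exchange of genotype would change what every D2 value here stands for. Regeneration genes were higher in the libraries labelled D2 CMD than in those labelled D2 WT in 8 of 17 and lower in 0, and macrophage genes higher in 14 of 21 and lower in 0. Over all genes 11.2% were higher and 9.03% lower there. In 67 the same lists gave 10 of 17 and 13 of 21 higher in CMD, and 0 lower, against 11.4% higher and 10.3% lower over all genes. Whether the genotype labels were exchanged was not tested. By the reads the CMD comparison sets 2 males and 1 female against 3 females. In 67 WT library 7 held 4184 Y-linked reads, and libraries 8 and 9 held 5 and 6. By the reads the WT comparison thus has a male in 67 and none in D2. The imbalance runs the other way in WT than in CMD, so sex enters the difference between the comparisons from both sides. Sex from the Y-linked reads was therefore added as a term in an alternative fit, and its values stand beside the results whose call it changed.

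Lama2 (ENSMUSG00000019899) was read at 29.5, 20 and 33.8 CPM in 67 CMD libraries 10, 11 and 12 and at 28.8, 23.3 and 29 CPM in D2 CMD libraries 22, 23 and 24, the order kept throughout. The groups overlapped, and the log2 fold change, D2 CMD over 67 CMD, was -0.04 ± 0.23 (SE, adjusted p = 0.931). WT levels were 28.4, 28 and 24.3 CPM in 67 and 42.5, 23.8 and 38.6 CPM in D2, so the transcript level does not tell CMD from WT in these strains and does not check the labels.

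Of 14789 genes tested, 1690 differed between D2 CMD and 67 CMD in edgeR's quasi-likelihood test at an adjusted p under 0.05, which is 11.4% of genes tested. Of these, 774 (5.23%) were higher and 916 (6.19%) lower in D2 CMD, and 813 differed by at least 1 on the log2 scale. The shares higher and lower are the background for the list counts below. The median log2 fold change of all tested genes was 0.04. The groups did not overlap in 1568 of the 1690, where 30.1% of all tested genes had no overlap. With sex from the Y-linked reads the count was 1019 (6.89%), of which 928 were among the 1690, with 424 higher (2.87%) and 595 lower (4.02%). Without libraries 16 and 23 it was 2325 (15.6%, 1433 shared), with 1170 higher (7.84%) and 1155 lower (7.74%), and with both changes 749 (570 shared). Left out singly, library 24 lowered the count to 747, library 10 to 881, library 12 to 917 and library 11 to 1076.

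Healthy muscle of the strains differed as well, at 1588 genes (10.7%), 692 higher (4.68%) and 896 lower (6.06%) in D2 WT. The 2 comparisons share no library. In both of them 529 genes were called in the same direction, 31.3% of the calls in CMD and 33.3% of those in WT. A further 31 were called in opposite directions, and 1130 were called in CMD only. Of the 529, the B6 CMD mean lay nearer to 67 CMD than to D2 CMD in 525 genes on the scale log2(CPM + 0.1). In WT the B6 mean was nearer to 67 in 484 of them. Picking genes by a difference between D2 and 67 favours this in a mosaic of B6 and D2. The share over all tested genes was not taken, so these counts only describe the 529 genes. The difference between the CMD and the WT comparison, tested as an interaction, passed for 189 genes (1.28%), 41 (0.277%) in which D2 gained on 67 with disease and 148 (1%) in which it lost. With sex from the Y-linked reads it passed for 76 (0.514%).

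**Figure D1:**
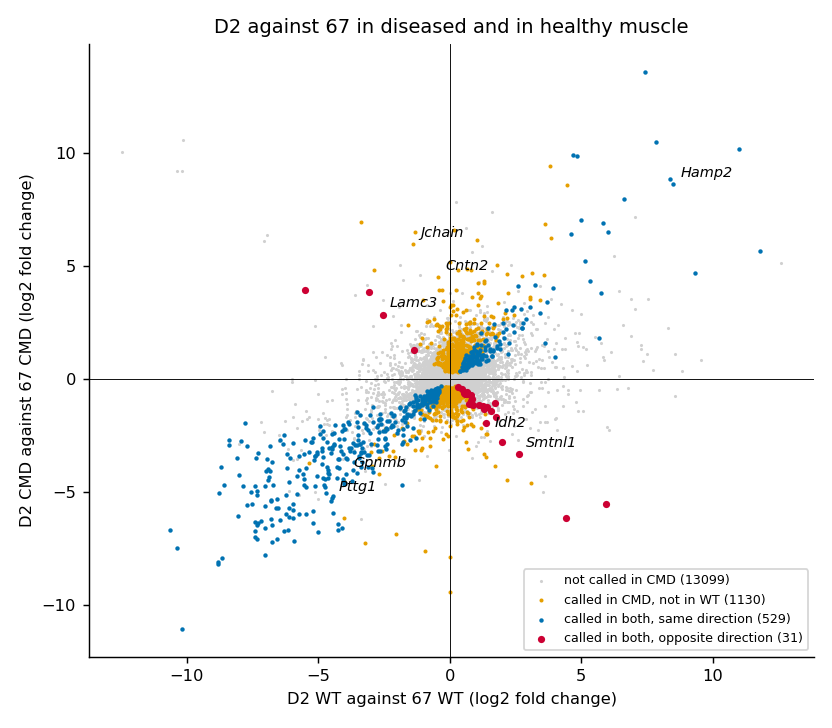
Log2 fold change of each tested gene, D2 over 67, in WT muscle (horizontal) and CMD muscle (vertical), coloured by the calls. The 529 genes called the same way in both lie along the rising diagonal, and 27 of the 31 called in opposite directions lie at the lower right; fitted values of genes with 0 reads in a group depend on the prior count.

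Several of the genes with the highest D2 to 67 ratio were near-identical copies of another gene, and except Amd2 they were called in WT too. Rps18-ps6, a copy on chromosome 13 of the small ribosomal subunit gene Rps18, held 0.362, 0.227 and 0.158 CPM in 67 CMD and 118.9, 134.4 and 100.1 CPM in D2 CMD. The groups were far apart, with a log2 fold change of 8.86 ± 1.66 (adjusted p = 0.00241). Rps18 itself ran the other way, at 161.4, 137.9 and 177.8 CPM against 46.1, 48.7 and 34.3 CPM (-1.89 ± 0.35, adjusted p = 0.00222). The sum of both was 161.7, 138.1 and 178 CPM in 67 CMD and 165, 183.1 and 134.5 CPM in D2 CMD, where the groups overlapped. GENCODE M21 transcripts of the pair were 99.08% identical, with 5 differing bases over 545. A stretch of the coding frame, bases 282 to 371 of 459, shows how little separates them. Capitals mark the differing bases, 2 of the 4 in the frame, and the sequences are those of the C57BL/6J reference (GRCm38).
Rps18: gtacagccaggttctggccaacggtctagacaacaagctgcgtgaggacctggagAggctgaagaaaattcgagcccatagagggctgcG
Rps18-ps6: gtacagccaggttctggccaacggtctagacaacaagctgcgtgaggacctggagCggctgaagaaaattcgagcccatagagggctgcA

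Reads of genes this alike cannot be assigned with certainty, so these levels are uncertain as levels of one locus. Hmga1b, a copy of the chromatin protein gene Hmga1 (99.81% identical), had 0.677, 0.496 and 0.237 CPM in 67 CMD and 44.2, 37.8 and 51.4 CPM in D2 CMD (6.54 ± 1.35, adjusted p = 0.00456). Hmga1 itself was lower, at 47.2, 39.4 and 52 CPM against 11.3, 9.01 and 12.4 CPM (adjusted p = 0.0119). Eno1b, a copy of the enolase gene Eno1 (99.48%), differed by 7.99 ± 0.77 (adjusted p = 3.05e-06), and Cox5b-ps, a copy of the cytochrome oxidase subunit gene Cox5b (99.23%), by 5.25 ± 0.40 (adjusted p = 1.78e-07). For Cox5b the pair did not keep its sum. Cox5b and its copy together held 353.2, 371.6 and 359.8 CPM in 67 CMD and 264.4, 223.8 and 191.2 CPM in D2 CMD, without overlap. Amd2, a copy of the polyamine synthesis gene Amd1 (99.69%), was 3.96 ± 1.03 higher (adjusted p = 0.0185). With sex from the Y-linked reads it was 2.21 higher (adjusted p = 0.013). In WT it was not called (0.25, adjusted p = 0.902), at 37.6, 5.83 and 11.6 CPM in 67 and 20.4, 25.9 and 19.1 CPM in D2. Library 7, read as male, lay above all of D2 WT, and libraries 8 and 9 lay below all of it. Amd2 was uneven in D2 CMD, at 34.8, 7.56 and 22.4 CPM, as was Amd1, at 329.4, 57.3 and 194 CPM. Both were lowest in library 23, which held 0 Y-linked reads.

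**Figure D2:**
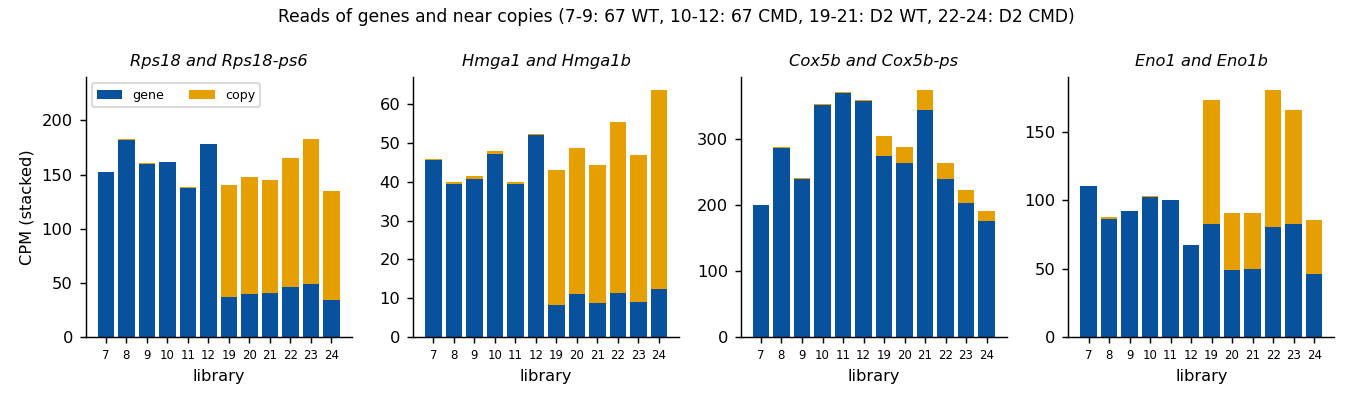
CPM of 4 genes (blue) and of their near-identical copies (orange), stacked, in the 12 libraries of 67 and D2. Copy reads are near 0 in every 67 library and present in every D2 library, WT and CMD, while the stacked sums of Rps18 overlap between the strains.

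Other large differences were also present in healthy muscle, though for Hamp2 at levels near 0. Hamp2, a paralog of the iron hormone gene Hamp, held 0.0725, 0 and 0.684 CPM in 67 CMD and 56.5, 104.3 and 125.3 CPM in D2 CMD (8.64 ± 1.24, adjusted p = 5.78e-04). It had 0 reads in all 3 libraries of 67 WT and 0.467, 0.121 and 2.6 CPM in D2 WT, so the size of its WT difference depends on the prior count. In D2 it rose with disease, by 6.46 on the log2 scale (adjusted p = 0.00121). Its call was lost with sex from the Y-linked reads when libraries 16 and 23 were also left out (adjusted p = 0.718). Cracdl was higher in D2 CMD by 4.14 ± 0.47 (adjusted p = 1.96e-05) and in D2 WT by 2.61.

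Pttg1 encodes securin, which delays the separation of sister chromatids until anaphase. It was read at 22.5, 24.4 and 45.7 CPM in 67 CMD and at 0.881, 0.566 and 0.942 CPM in D2 CMD, 38.6-fold lower (-5.27 ± 0.38, adjusted p = 9.66e-08). Rab6b, a Golgi trafficking GTPase, was 21.2-fold lower (-4.40 ± 0.45, adjusted p = 5.13e-06). Gpnmb, a glycoprotein of macrophages and regenerating tissue of which DBA/2J is known to carry a nonsense allele, held 10.3, 17.2 and 17.7 CPM in 67 CMD and 0.48, 0.389 and 1.6 CPM in D2 CMD (-4.18 ± 0.74, adjusted p = 0.00161). Mndal, of an interferon-induced family of close paralogs and so uncertain as one locus, was lower by 3.38 (adjusted p = 3.57e-06). In WT muscle these 4 genes had log2 fold changes of -4.48, -4.06, -3.94 and -3.44, all past the threshold.

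The remaining genes among the most raised and lowered were not called in WT, except Smtnl1. Cntn2, which encodes an axonal adhesion protein, held 1.11, 1.08 and 3.37 CPM in 67 CMD and 4.9, 52.6 and 69.4 CPM in D2 CMD (4.52 ± 0.83, adjusted p = 0.00213). Library 22 lay far below the others of its group yet above all of 67 CMD. Tmc7, a transmembrane channel-like gene, was 14.4-fold lower in D2 CMD (-3.85 ± 0.82, adjusted p = 0.00568). Ppp1r14bl, a phosphatase inhibitor gene with a close paralog, was lower by 3.42 (adjusted p = 0.00675), at 3.77, 24.8 and 6.13 CPM against 1.74, 0.319 and 1.19 CPM. The neuronal transporter gene Slc6a17 was lower by 3.07 (adjusted p = 0.0108, and 0.0524 with sex from the Y-linked reads). Without library 11 the calls of Ppp1r14bl and Slc6a17 were lost (adjusted p = 0.0571 and 0.0682). The interaction passed for none of Cntn2, Tmc7, Ppp1r14bl and Slc6a17 (adjusted p = 0.0596 to 0.196).

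Genes of oxidative phosphorylation, by which mitochondria turn fuel into ATP, were lower in D2 CMD. Of 22 listed genes 12 were lower and 0 higher, against 6.19% lower over all tested genes, and the median log2 fold change was -0.54 against 0.04. All 22 had a fold change below 0. The summed level of the list was 11890, 14171 and 13092 CPM in 67 CMD and 12107, 7807 and 8126 CPM in D2 CMD. The sums overlapped, since library 22 lay within the range of 67 CMD. With sex from the Y-linked reads 5 were lower (4.02% of all genes), with a median of -0.49. Fitting only the 6 libraries compared left 1, as did sex from the Y-linked reads without libraries 16 and 23. Leaving out library 22 gave 18, without libraries 16 and 23 there were 6, and the other single libraries gave 5 to 7.

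Ppargc1a, the coactivator that drives mitochondrial biogenesis, was read at 32, 59.6 and 31.6 CPM in 67 CMD and at 19.5, 9.64 and 12.9 CPM in D2 CMD. Every D2 CMD library lay below every 67 CMD library, 2.93-fold lower in the fit (-1.55 ± 0.27, adjusted p = 0.00158, and 0.00317 with sex from the Y-linked reads). Cox7a1, the muscle form of a cytochrome oxidase subunit, held 199.2, 210 and 167.7 CPM against 126.8, 56.2 and 50.7 CPM (-1.30 ± 0.25, adjusted p = 0.00277). Sdhb, the iron-sulfur subunit of succinate dehydrogenase, held 393.9, 439.7 and 472 CPM against 271.5, 217 and 151.4 CPM (-1.03 ± 0.23, adjusted p = 0.0084). In these as in the other called members the groups did not overlap, and library 22 was nearest to 67 CMD. The groups did not overlap in 1568 of all 1690 called genes either, so the lack of overlap is no further result. Sdhc, of the same complex, and Cox5a were lower by 0.63 and 0.65 (adjusted p = 0.01 and 0.0114). These 5 are the members that kept an adjusted p under 0.05 with sex from the Y-linked reads. To complete the count, and outside the rule for named genes, the others were Atp5mc1, Ndufa4, Ndufv1, Sdhd, Cox4i1, Uqcrc2 and Uqcrfs1, subunits of ATP synthase and of complexes of the respiratory chain, at -0.71 to -0.54 and adjusted p = 0.0614 to 0.165 with sex from the Y-linked reads.

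In healthy muscle the same list ran the other way, with 7 of 22 higher in D2 WT, against 4.68% of all genes, and a median of 0.41. The interaction passed for 8 of 22, all lower, against 1% lower over all genes, with a median of -0.93 (0.05 over all genes). Those 8 were Ppargc1a, Cox7a1, Sdhb, Sdhc, Ndufv1, Uqcrc2, Uqcrfs1 and Atp5mc1, and with sex from the Y-linked reads 1 of them passed, Ppargc1a (adjusted p = 0.041). By CMD against WT within a strain, 19 of 22 fell in D2 and 4 rose in 67. Of all genes 20.2% changed in D2, 11.2% rising and 9.03% falling, and 21.7% in 67, 11.4% rising and 10.3% falling. For Ppargc1a these changes were -1.03 in D2 (adjusted p = 0.0129) and 0.86 in 67 (adjusted p = 0.028). Fibre type markers differed between the WT groups and also changed with disease in 67. Of 13 slow fibre genes 12 were higher in D2 WT than in 67 WT, against 4.68% of all genes, with a median of 6.79. With disease 11 of 13 rose in 67 and 0 in D2. Of 15 fast fibre genes 12 fell with disease in 67 and 1 in D2. The interaction of the slow fibre genes had a median of -5.96 and passed for 1 of 13, which was lower. Between the CMD groups 0 of 13 slow and 0 of 15 fast fibre genes passed, with medians of 0.41 and 0.11. The slow myosin Myh7 held 172.5, 7.84 and 15.4 CPM in 67 CMD and 11.8, 285.5 and 127.9 CPM in D2 CMD, an overlapping and wide spread. The part of fibre type in the interaction was not tested.

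**Figure D3:**
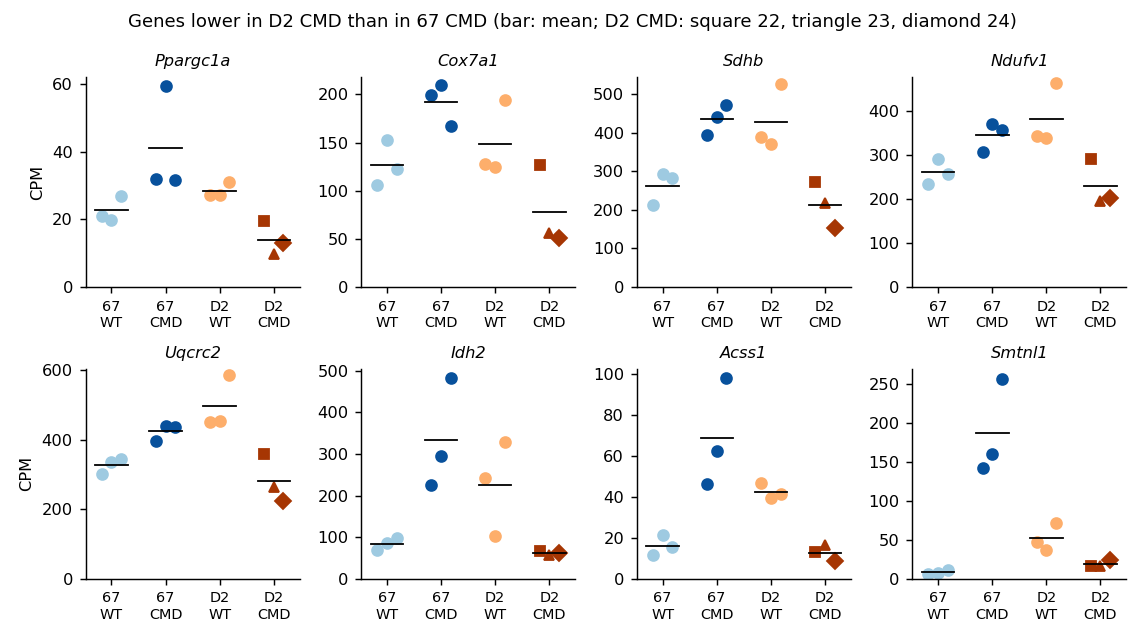
CPM of 8 genes in each library of 67 WT, 67 CMD, D2 WT and D2 CMD, with the group mean as a bar. D2 CMD lies below 67 CMD in every panel, and library 22 (square) is the D2 CMD library nearest to 67 CMD for Ppargc1a, Cox7a1, Sdhb, Ndufv1 and Uqcrc2.

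Idh2, the mitochondrial isocitrate dehydrogenase, held 224.4, 294.1 and 483.2 CPM in 67 CMD and 67, 57.7 and 62.8 CPM in D2 CMD, 5.34-fold lower (-2.42 ± 0.57, adjusted p = 0.00996, and 0.0481 with sex from the Y-linked reads). Acss1, which makes acetyl-CoA from acetate in mitochondria, held 46.4, 62.2 and 97.9 CPM against 13.2, 16.4 and 8.6 CPM (-2.44 ± 0.65, adjusted p = 0.0213, and 0.059 with sex from the Y-linked reads). The Acss1 call was lost without library 12 or 24 (adjusted p = 0.077 and 0.097). Neither Idh2 nor Acss1 had overlapping groups. Both rose with disease in 67, by 1.99 for Idh2 and 2.09 for Acss1 (adjusted p = 0.0163 and 0.0261), and in D2 Idh2 fell by 1.85 (adjusted p = 0.0253). Hk2, the hexokinase that commits glucose in muscle, was lower in D2 CMD by 0.87 (adjusted p = 0.0027). With Gpi1 (-0.54, adjusted p = 0.0457) it made up the 2 of 18 glycolysis and glycogen genes that passed, against 6.19% lower over all genes. Fatty acid oxidation genes passed in 0 of 17, with a median of -0.52.

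Smtnl1 was called in CMD and in WT, in opposite directions. It encodes a smoothelin-like protein of fast oxidative-glycolytic muscle and was read at 142.5, 160.5 and 256.7 CPM in 67 CMD and at 16.4, 16.4 and 23.7 CPM in D2 CMD, 9.9-fold lower (-3.31 ± 0.66, adjusted p = 0.00351). In WT it was 6.16, 7.41 and 11.4 CPM in 67 and 47.1, 36.8 and 71.4 CPM in D2 (2.64, adjusted p = 0.0126). The interaction was -5.94 ± 0.92 (adjusted p = 0.00638, and 0.0269 with sex from the Y-linked reads). With disease Smtnl1 rose in 67 by 4.49 (adjusted p = 3.54e-04), and in D2 the change was -1.46 (adjusted p = 0.0979).

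Of the 31 genes called in opposite directions, 27 were lower in D2 CMD and higher in D2 WT. All 31 passed the interaction, which opposite calls make likely, and 15 were called in CMD with sex from the Y-linked reads. The following were chosen after their values were seen. Ckmt2, the mitochondrial creatine kinase of muscle, held 798.6, 1213 and 1031 CPM in 67 CMD and 616.4, 256.4 and 430.5 CPM in D2 CMD (-1.22 ± 0.32, adjusted p = 0.0182), and 1.41 more in D2 WT than in 67 WT on the log2 scale. Coq8a, of coenzyme Q synthesis, held 1069, 1039 and 1645 CPM against 424.4, 441.6 and 546 CPM (-1.41, adjusted p = 0.0236). In both genes 67 CMD lay above D2 CMD in every library. Mdh1, the cytosolic malate dehydrogenase, was lower by 1.10 (adjusted p = 0.00346), and Perm1, a regulator of oxidative capacity in muscle, by 1.14 (adjusted p = 0.0308). After sex from the Y-linked reads was added, the adjusted p was 0.0563 for Ckmt2, 0.105 for Coq8a and 0.0899 for Perm1.

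Nos1, the neuronal nitric oxide synthase that binds the dystrophin complex, held 69.6, 67.5 and 87.9 CPM in 67 CMD and 41.3, 23.4 and 39.8 CPM in D2 CMD. The groups did not overlap (-1.11 ± 0.24, adjusted p = 0.00595, and 0.00679 with sex from the Y-linked reads). It was higher in D2 WT by 0.75 and fell with disease in D2 by 1.86 (adjusted p = 1.03e-04). The 4 genes that ran the other way, higher in D2 CMD and lower in D2 WT, were Lamc3, Adora1, Slc35f3 and Dsp. Dsp, the desmosomal protein desmoplakin, held 0.435, 0.434 and 0.737 CPM in 67 CMD and 2.54, 5.43 and 17.1 CPM in D2 CMD (3.97 ± 0.81, adjusted p = 0.00405).

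A further 80 genes were called in CMD and for the interaction but not in WT, 16 higher and 64 lower in D2 CMD. The most raised of these were Morn4, Car11, Zdhhc24 and Sipa1l1. Sipa1l1, a regulator of Rap GTPases, held 7.83, 8.35 and 7.97 CPM in 67 CMD and 15.5, 17 and 17.2 CPM in D2 CMD, with the D2 WT libraries at 15.7 to 17.6 CPM and the 67 WT libraries at 17.3 to 20.9 CPM. The 67 CMD libraries stood below the other 9 libraries of both strains (1.04 ± 0.15, adjusted p = 2.02e-04). Car11, a carbonic anhydrase-related gene, showed the same order, at 3.62, 3.21 and 2.5 CPM in 67 CMD and 7.83, 8.95 and 9.81 CPM in D2 CMD (1.51 ± 0.24, adjusted p = 5.78e-04). In 67 both fell with disease, by 1.26 for Sipa1l1 and 1.42 for Car11. Zdhhc24, a palmitoyltransferase gene, was higher by 1.17 (adjusted p = 0.00405), at 5.1, 9.2 and 10.7 CPM in D2 CMD, and rose with disease in D2 by 1.33. Morn4 was higher by 1.56 (adjusted p = 0.0335, and 0.0878 with sex from the Y-linked reads). Its call was lost without library 10, 11, 12, 22 or 24 (adjusted p = 0.0646 to 0.126).

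Lowered in the same class were Snai3, Acss1, Idh2 and Abhd18. Snai3, a Snail-family repressor, held 17.1, 30.2 and 22.6 CPM in 67 CMD and 3.38, 3.7 and 5.77 CPM in D2 CMD (-2.44 ± 0.40, adjusted p = 9.03e-04). It rose with disease in 67 by 2.01 (adjusted p = 0.00174), and in D2 the change was -0.29 (adjusted p = 0.614). Abhd18 was 4.51-fold lower in D2 CMD (-2.17 ± 0.45, adjusted p = 0.00457). Of these 8 genes the interaction with sex from the Y-linked reads passed for Sipa1l1 (adjusted p = 0.0168) and Abhd18 (adjusted p = 0.048).

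Genes that respond to loss of innervation were higher in part. A fibre that loses its nerve spreads acetylcholine receptors over its surface. Of 18 listed genes 5 were higher and 1 lower, against 5.23% higher over all genes, with a median of 1.02. With sex from the Y-linked reads 7 were higher and 1 lower. Without library 24 the number higher was 2, and the other single libraries gave 4 to 6.

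Promoters of the receptor subunit genes were searched for the E-box CAGCTG, a letter pattern that muscle transcription factors of the MyoD family are known to bind. The pattern reads the same on both strands, was looked for in the 250 bases before the start of each gene (RefSeq, GRCm38.p6) and is in 14.7% of all gene symbols with a promoter there. It was found in 3 of 4 subunit genes with an entry, Chrna1, Chrng and Chrne, and not in Chrnb1. A match is a description of the letters and not a site. The promoters that hold the pattern are shown, with the pattern in capitals. The D2 CMD libraries take the same order in these 3 genes, but also in Chrnd, which has no entry, and in the myelin gene Mbp. A link between the pattern and the levels was not tested. Chrna1 is at chr2:73580339-73580588 (minus strand), Chrng at chr1:87205561-87205810 (plus strand) and Chrne at chr11:70619195-70619444 (minus strand). The first base of the pattern lies 92 and 44 bases before the start in Chrna1, 155 and 132 in Chrng and 138 in Chrne.
Chrna1: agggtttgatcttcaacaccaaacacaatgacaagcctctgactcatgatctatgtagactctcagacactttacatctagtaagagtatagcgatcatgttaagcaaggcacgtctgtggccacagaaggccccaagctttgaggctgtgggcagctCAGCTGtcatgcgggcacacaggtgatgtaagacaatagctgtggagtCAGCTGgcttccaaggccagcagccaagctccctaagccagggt
Chrng: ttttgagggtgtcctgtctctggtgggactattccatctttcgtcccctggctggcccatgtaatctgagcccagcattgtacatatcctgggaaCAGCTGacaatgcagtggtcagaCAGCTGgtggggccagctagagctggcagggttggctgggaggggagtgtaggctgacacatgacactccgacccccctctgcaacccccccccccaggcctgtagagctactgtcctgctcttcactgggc
Chrne: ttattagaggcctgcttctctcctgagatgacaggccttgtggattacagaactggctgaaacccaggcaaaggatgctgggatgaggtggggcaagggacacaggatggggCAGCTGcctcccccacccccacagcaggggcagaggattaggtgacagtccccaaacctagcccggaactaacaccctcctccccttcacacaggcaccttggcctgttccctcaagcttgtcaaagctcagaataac

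Chrne, the adult receptor subunit, held 17.5, 13.3 and 9.76 CPM in 67 CMD and 34.5, 61.9 and 57.1 CPM in D2 CMD, with no overlap (1.92 ± 0.44, adjusted p = 0.00832). Chrnb1 held 45.6, 42.9 and 50.4 CPM against 55.6, 106.3 and 113.1 CPM (0.99 ± 0.23, adjusted p = 0.00964). The alpha subunit gene Chrna1 held 75.9, 62.9 and 77.4 CPM against 60, 344.9 and 216.7 CPM (1.52 ± 0.46, adjusted p = 0.0383). For Chrna1 the groups overlapped, since library 22 lay below all of 67 CMD. The embryonic subunit genes ran alike without passing. Chrng was at 3.24, 31.6 and 15.7 CPM in D2 CMD (1.08, adjusted p = 0.349) and Chrnd at 10.8, 78.3 and 62.2 CPM (1.38, adjusted p = 0.173), library 22 the lowest in both.

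Hdac4, a deacetylase that relays denervation to the receptor genes, was higher by 1.11 (adjusted p = 0.00531). It held 70.7, 49.2 and 68.8 CPM in 67 CMD and 88.1, 142.6 and 175.5 CPM in D2 CMD. The 1 gene lower was Prkcq, a protein kinase C of muscle (-0.62, adjusted p = 0.0157). The interaction passed for 0 of 18, and for 2 with sex from the Y-linked reads. With disease 14 of 18 rose and 2 fell in D2, where 11.2% of all genes rose, and 11 of 18 rose and 0 fell in 67, where 11.4% rose.

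Schwann cell genes followed the same libraries. Of 12 listed genes 4 were higher in D2 CMD and 0 lower, against 5.23% higher over all genes, with a median of 1.26. After adding sex from the Y-linked reads 6 were higher, against 2.87%. Leaving out library 22 gave 8, and leaving out library 12, library 23 or libraries 16 and 23 gave 0. Leaving out library 10 or 24 gave 1, and library 11 gave 2. Ncmap, a myelin membrane protein, held 0.894, 1.18 and 0.579 CPM in 67 CMD and 1.12, 5.77 and 3.35 CPM in D2 CMD (1.94 ± 0.57, adjusted p = 0.0337). Mbp, myelin basic protein, held 25.1, 22 and 13.8 CPM against 20.7, 98 and 53.8 CPM (2.83-fold higher, adjusted p = 0.018). In both, library 22 fell among the 67 CMD values. Sox10, the Schwann cell transcription factor, and Prx, periaxin, were each higher by 1.74 (adjusted p = 0.036 and 0.0486). The summed level of the list was 82.1 to 144.1 CPM in 67 CMD and 111.9, 482 and 288.5 CPM in D2 CMD. How much nerve each sample held was not tested.

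Several immune genes called higher were high in libraries 22 and 24 and low in library 23. Jchain, the joining chain of secreted antibodies, held 1.14, 0.372 and 0.474 CPM in 67 CMD and 71.1, 0.478 and 55.2 CPM in D2 CMD (6.00 ± 1.53, adjusted p = 0.0164, and 0.206 with sex from the Y-linked reads). Mzb1, of plasma cells, held 4.36, 0.195 and 4.04 CPM in D2 CMD (3.80 ± 1.01, adjusted p = 0.0206, and 0.193 with sex from the Y-linked reads). They are the 2 of 11 T, B and plasma cell genes that passed, against 5.23% higher over all genes, with 5 further listed genes too low to test. Adgre1, which encodes the macrophage antigen F4/80, held 7.2, 5.85 and 8.45 CPM in 67 CMD and 53.8, 3.88 and 44.4 CPM in D2 CMD (2.25 ± 0.65, adjusted p = 0.0315, and 0.27 with sex from the Y-linked reads). In all 3 genes library 23 lay within or below the range of 67 CMD. These libraries are also the ones with Y-linked reads, so library 23 and sex cannot be told apart here, and with sex from the Y-linked reads 0 T, B or plasma cell genes and 0 macrophage genes were higher. Leaving out any 1 of libraries 10, 11, 12, 22 and 24 also left 0 macrophage genes higher, and without library 12 there were 0 T, B or plasma cell genes.

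Of 21 macrophage and myeloid genes 2 were higher, Adgre1 and the integrin Itgam (1.94, adjusted p = 0.0489, and 0.304 with sex from the Y-linked reads), and 1 lower, Gpnmb, with a median of 0.24. Over all genes 5.23% were higher, so the count is near the background. The summed level was 406.5 to 569.8 CPM in 67 CMD and 781.9, 328.8 and 797.2 CPM in D2 CMD. Csf3r, the granulocyte colony-stimulating factor receptor, was the 1 of 8 granulocyte and mast cell genes that passed (2.09, adjusted p = 0.027, and 0.154 with sex from the Y-linked reads), at 5.7, 1.27 and 7.23 CPM in D2 CMD, a call kept without library 23 and lost without each of the other 5. Zbp1, a sensor of nucleic acids, was the 1 of 16 interferon response genes (1.74, adjusted p = 0.0433, and 0.203 with sex from the Y-linked reads). Its call was lost without library 10, 11, 12 or 24, and without library 24 the value was 0.79 (adjusted p = 0.416). Complement C3 held 109.8, 96.3 and 146.1 CPM in 67 CMD and 668, 436.2 and 444.3 CPM in D2 CMD, without overlap (2.14 ± 0.47, adjusted p = 0.00675, and 0.019 with sex from the Y-linked reads), and was the 1 of 15 complement genes that passed. The list's sum in D2 CMD was 2031, 2085 and 1011 CPM, lowest in library 24.

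**Figure D4:**
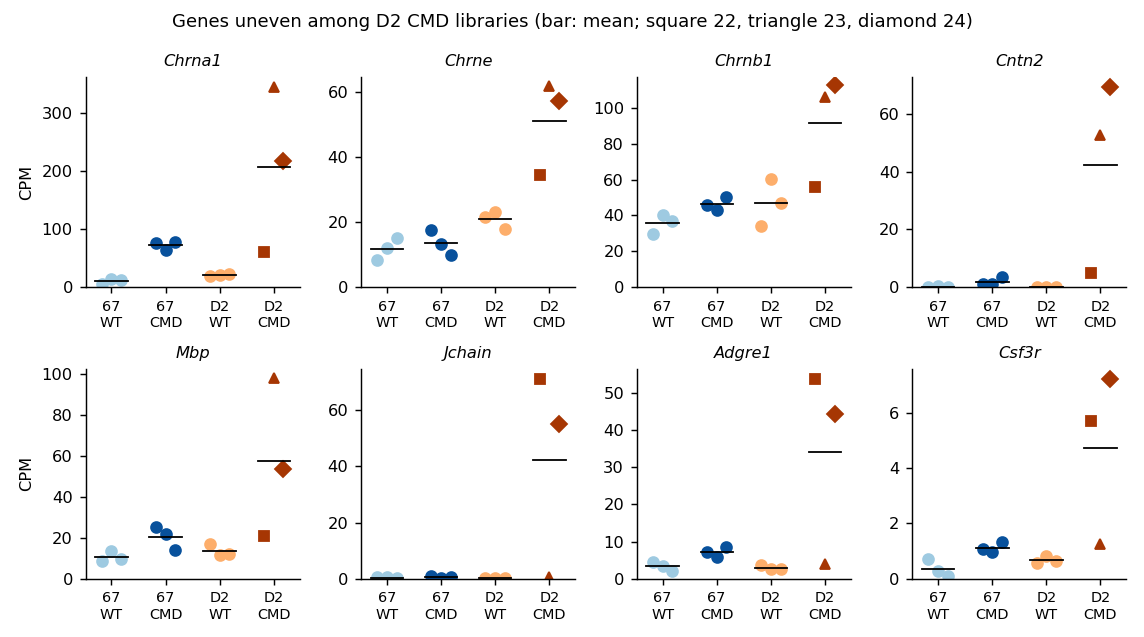
CPM of 8 genes in each library of 67 WT, 67 CMD, D2 WT and D2 CMD, with group means as bars. Library 22 (square) is lowest of D2 CMD for Chrna1, Chrne, Chrnb1, Cntn2 and Mbp, and library 23 (triangle) is lowest for Jchain, Adgre1 and Csf3r.

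Laminin and basement membrane genes were higher in 3 of 20, against 5.23% over all genes, with a median of 0.58. In the fit with sex from the Y-linked reads 1 of 20 was higher, near the 2.87% over all genes. The gamma chain gene Lamc3 held 0.169, 0.517 and 0.263 CPM in 67 CMD and 3.3, 1.66 and 2.12 CPM in D2 CMD (2.87 ± 0.80, adjusted p = 0.0255, and 0.0421 with sex from the Y-linked reads). It was lower in D2 WT than in 67 WT by 2.55, at 0.378, 0.314 and 0.416 CPM against 4.27, 1.14 and 1.12 CPM. The collagen IV chain gene Col4a2 was higher by 0.73 (adjusted p = 0.0334) and Agrn, the agrin that clusters acetylcholine receptors, by 0.69 (adjusted p = 0.0466), and with sex from the Y-linked reads the adjusted p was 0.121 and 0.0913. The laminin alpha chain genes that can stand in for Lama2 gave 0.34 for Lama4 (adjusted p = 0.444) and 0.65 for Lama5 (adjusted p = 0.122). All 3 calls were lost without library 10, 12 or 24, and that of Lamc3 also without library 22 (adjusted p = 0.0578). Of 18 genes of the dystrophin complex and the laminin receptors 0 passed, with a median of 0.16.

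Of 28 fibrillar collagen and matrix genes 0 passed (median 0.16), and Col1a1, the main fibrillar collagen, held 247.4, 328.3 and 142.7 CPM in 67 CMD and 302, 241.8 and 573.2 CPM in D2 CMD (adjusted p = 0.493). Ccn2, the connective tissue growth factor, was lower in D2 CMD and was the 1 of 24 TGF-beta pathway genes that passed. It held 63.5, 54.1 and 81.2 CPM in 67 CMD and 9.95, 25.7 and 15.6 CPM in D2 CMD, 3.88-fold lower without overlap (-1.95 ± 0.44, adjusted p = 0.00793, and 0.0178 with sex from the Y-linked reads). With disease it rose in 67 by 3.14 (adjusted p = 2.44e-04), and in D2 the change was -0.14 (adjusted p = 0.842). Mfap5, a microfibril protein of fibroblasts, ran alike, at 40.2, 28.6 and 38.3 CPM against 13.5, 19.4 and 15.6 CPM (-1.14 ± 0.26, adjusted p = 0.00923), the 1 of 15 progenitor and fibroblast genes. Over all genes 6.19% were lower, so the counts of both lists are near the background. Ccn2 and Mfap5 passed the interaction, with adjusted p = 0.0148 for Ccn2 and 0.0137 for Mfap5.

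Mmp9, a gelatinase, was higher by 2.39 (adjusted p = 0.015), at 9.89, 2.6 and 4.36 CPM against 0.942, 1.16 and 1.11 CPM, and Mgp, matrix Gla protein, an inhibitor of calcification, lower by 1.73 (adjusted p = 0.0371, and 0.0795 with sex from the Y-linked reads), at 22.2, 97.6 and 36.3 CPM against 159.3, 113.5 and 246.7 CPM. They are the 2 of 11 tested mineralisation genes that passed, 1 in each direction, where 5.23% of all genes were higher and 6.19% lower. A further 5 listed ones were too low to test. The Mmp9 call was lost without library 10, 12 or 22, and that of Mgp without library 10, 12, 22 or 24. Membrane repair genes split. Dysf, dysferlin, was higher by 0.64 (adjusted p = 0.0234, and 0.0888 with sex from the Y-linked reads). Cav3, caveolin-3, and Anxa6, annexin A6, were lower by 0.51 and 0.46 (adjusted p = 0.00977 and 0.0235). That is 1 of 14 higher and 2 of 14 lower, against 5.23% and 6.19% over all genes. Anxa6 and Ltbp4 are known modifiers of muscular dystrophy between mouse strains, and Ltbp4 gave -0.10 (adjusted p = 0.883).

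Adipocyte genes passed in 0 of 14 at a median of 1.69. Their sum was 1126 to 1431 CPM in 67 CMD and 6367, 5031 and 412.8 CPM in D2 CMD, high in libraries 22 and 23 and below all of 67 CMD in library 24. Adipoq, adiponectin, held 169, 197.1 and 4.54 CPM there. Of 15 p53 and senescence genes 3 were higher, against 5.23% over all genes, Mdm2 (0.49), Bbc3 (1.04) and Gdf15 (2.07), with adjusted p = 0.0244, 0.0248 and 0.0386. None of the 3 passed once sex was taken from the Y-linked reads, at adjusted p = 0.0519 to 0.0748. Leaving out library 11, 12, 23 or 24 gave 0, and library 10 gave 1. Gdf15 was also the 1 of 17 integrated stress genes. It held 0.242, 0.331 and 0.316 CPM in 67 CMD and 0.16, 2.23 and 1.36 CPM in D2 CMD, so library 22 lay below 67 CMD. The replication helicase gene Mcm6 was the 1 of 13 cell cycle genes, at 10, 4.12 and 8.45 CPM in 67 CMD and 1.16, 1.49 and 1.93 CPM in D2 CMD (-2.30 ± 0.45, adjusted p = 0.00329). That count is near the 6.19% lower over all genes.

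Cytosolic ribosome genes were lower in 3 of 22, against 6.19% over all genes (median -0.09): Rplp0 (-1.61, adjusted p = 3.90e-04), Rps18 and Rps2 (-0.91, adjusted p = 0.00428). All 3 had like values in WT (-1.48, -2.09 and -0.92), and ribosomal genes have many copies among which reads can be split. The globin gene Hba-a1 was the 1 of 13 blood and handling genes (2.36, adjusted p = 0.0343), near the 5.23% higher over all genes. It held 361.2, 135.1 and 87.2 CPM in D2 CMD and 18, 58.9 and 36.8 CPM in 67 CMD. The call was lost when sex came from the Y-linked reads (1.72, at an adjusted p of 0.115), with unique reads (adjusted p = 0.0599) and without library 10, 12 or 22, where the value without 22 was 1.55. Its near-identical neighbour Hba-a2 ran the other way (-2.03, adjusted p = 0.0561), so the level of either is uncertain. Regeneration and fusion (17 genes), tendon and cartilage (12), endothelial and pericyte (14) and atrophy and glucocorticoid (16) lists had 0 genes past the threshold, with medians of 0.12, -0.13, 0.17 and -0.32. Their genes can still differ by amounts this design does not detect.

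**Figure D5:**
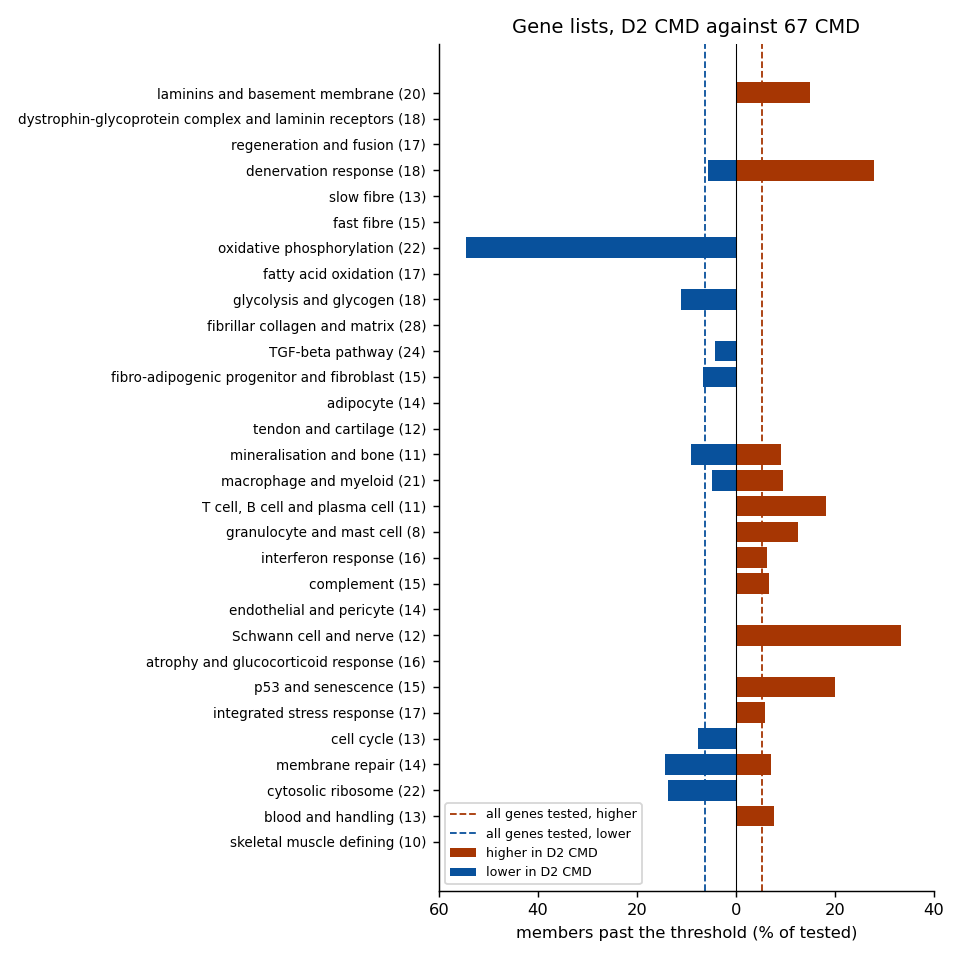
Percent of the tested members of each gene list (number tested in brackets) called higher (right) or lower (left) in D2 CMD than in 67 CMD, with the percent over all tested genes as dashed lines. Oxidative phosphorylation stands out to the left with 12 of 22, and Schwann cell and denervation genes to the right with 4 of 12 and 5 of 18.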

How the data were processed

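Per the labels, total RNA of left quadriceps was extracted with TRIzol and sequenced from a stranded mRNA kit as paired reads of 58 bases. The build is GRCm39 (mm39) per the submitters' processing notes. An aligner or counter is not given in the sources used here. Per the file headers, the authors deposited raw read counts per gene over exons, as total and as unique reads, and also TPM and RPKM, which were not used in a test.

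Total exon reads of all 24 libraries were fitted in edgeR 4.0.16 (R 4.3.3, limma 3.58.1), with TMM scaling, filterByExpr by group (minimum count 10, minimum total 15), which left 14789 of 25369 listed genes, and a term for each of the 8 groups with no sex term. Contrasts were tested by the quasi-likelihood test with Benjamini-Hochberg adjustment at 0.05 over all genes tested. CPM are reads over the TMM-adjusted library size, and fold changes carry edgeR's prior count. D2 CMD was compared with 67 CMD, D2 WT with 67 WT, the difference of both was tested, and CMD with WT within each strain. The method was tested on simulated data. Libraries of 3 per group limit what can be detected.

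The groups compared, the 30 gene lists (480 genes, 461 tested) and the rules were chosen with earlier results of these data known. The rule for named genes took Lama2, then 8 called protein-coding genes in each direction by size of change, with no overlap between the groups and mean log2 CPM not under 1, the 4 and 4 called in CMD and for the difference but not in WT, the called gene of largest change in each list, and up to 4 further list members by adjusted p. Other genes in the text complete a count or were chosen after their values were seen, and 2 list members are counted but not reported here. Genes without a usual symbol (Gm, Rik, leading digit), H2, immunoglobulin and Y-linked genes were left out of the ranked sets. Alternatives were sex as labelled, sex from reads of 4 Y-linked genes (male above 5 CPM), no filter, RLE factors, DESeq2 1.42.0, only the libraries compared, each library left out, libraries 16 and 23 left out, unique reads, and a minimum log2 fold change of 1. Sex from Y-linked reads together with leaving out libraries 16 and 23 was added after seeing the data. Promoters come from RefSeq (GRCm38.p6) and transcripts from GENCODE M21 (GRCm38), matched by symbol and not by coordinates of the authors' build.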

Additional observations from a re-analysis of the deposited data

Results flagged for a closer look

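For 13 named genes the D2 against 67 difference was not the same in CMD and in WT muscle, by the interaction test in edgeR. Morn4, Car11, Zdhhc24, Sipa1l1, Snai3, Acss1, Idh2 and Abhd18 were named by a rule that required this test to pass. Their passing is therefore no further result. Smtnl1 and Lamc3 were called in opposite directions in CMD and in WT, which makes a pass likely. D2 lost on 67 with disease in Smtnl1 (-5.94, adjusted p = 0.00638), Idh2 (-3.84, 0.0221), Acss1 (-3.83, 0.0422), Abhd18 (-3.35, 0.0137), Ccn2 (-3.28, 0.0148), Snai3 (-2.31, 0.0432), Mfap5 (-2.02, 0.0137) and Ppargc1a (-1.88, 0.0205). It gained in Lamc3 (5.42, 0.0221), Morn4 (2.67, 0.0427), Car11 (1.49, 0.0293), Zdhhc24 (1.43, 0.041) and Sipa1l1 (1.25, 0.0066), all as log2 differences with the adjusted p after each. With sex from the Y-linked reads Smtnl1, Abhd18, Ccn2, Mfap5, Ppargc1a, Lamc3 and Sipa1l1 kept an adjusted p under 0.05 (0.0168 to 0.048), and Idh2, Acss1, Snai3, Morn4, Car11 and Zdhhc24 did not (0.0994 to 0.177).

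Reads of Y-linked genes appeared in D2 CMD libraries labelled female. Library 22 held 4927 and library 24 held 4858, where library 23 held 0 and the 67 CMD libraries 2 to 4.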

How the results depend on the processing

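No paired analysis was possible because the libraries are numbered 1 to 24 and the groups share no number, so no replicate block could be fitted. The count for D2 CMD against 67 CMD (1690) was 1019 with sex from the Y-linked reads, 531 when only the 6 libraries were fitted, 813 with a log2 fold change of at least 1, and 747 to 1797 with each library left out. The WT count (1588) ran from 797 to 1294 with each library left out, at 797, 1012, 803 and 818 without libraries 8, 9, 19 and 21. It was 2344 without libraries 16 and 23 and 2316 with only the 6 WT libraries. The interaction (189) gave 76 with sex from the Y-linked reads, 445 with sex as labelled, 610 in DESeq2, 293 with only the 12 libraries of D2 and 67, 420 without libraries 16 and 23, and 47 to 355 with each library left out. It was 59, 120 and 113 without libraries 7, 8 and 9, 59 and 65 without 11 and 12, 47 without 21, and 355 and 114 without 22 and 24. List genes higher (25) and lower (25) were 5 and 9 with only the libraries compared, and ran from 5 to 29 and from 15 to 37 with each library left out, the higher ones at 8, 5 and 8 without libraries 10, 12 and 24 and the lower ones at 15 without 12. The oxidative phosphorylation count (12) was 5 with sex from the Y-linked reads, 1 with only the libraries compared, 6 without libraries 16 and 23, and 5 to 18 with each library left out. Denervation genes higher (5) were 1 with only the libraries compared and 2 to 6 with each library left out, and Schwann cell genes (4) were 0 with only the libraries compared, 0 without libraries 16 and 23, and 0 to 8. Sex from the Y-linked reads without libraries 16 and 23 gave 749 genes in CMD, 18 for the interaction, 11 list genes higher and 16 lower, 1 oxidative phosphorylation gene lower and 3 denervation genes higher.

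Of 42 values of named genes, 41 kept their direction under all 15 alternatives. The exception was Lama2 (-0.04, not past the threshold), at 0.01 and 0.13 without libraries 10 and 12, 0.02 without 23 and 0.04 without 16 and 23. Of the 42, 33 kept their side of the threshold with sex from the Y-linked reads, 31 with only the libraries compared, 23 with that sex coding and without libraries 16 and 23, 30 to 40 with one CMD library left out, and 40 to 42 under the rest. With only the libraries compared, 4 residual degrees of freedom estimate the spread, fewer than in the fit of all libraries.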
